A study of Mus musculus with 9 samples.

Results

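The Toll-like receptor (TLR) genes and their adaptors were followed across mouse embryonic fibroblasts (MEF) that lack different H3K9 lysine methyltransferases (KMT). The set was defined by name and holds 10 of the 47937 genes in the count table: the receptors Tlr1, Tlr2, Tlr3, Tlr4 and Tlr6, the TLR4 co-receptor genes Cd14 and Ly96, and the adaptors Myd88, Ticam1 and Ticam2. RNA was sequenced from 9 cultures, 3 of each of 3 genotypes. WT cells are the Eset1-conditional line, which carries a tamoxifen-inducible Cre. The S1S2 line has lost Suv39h1 together with Suv39h2. The G9Gl line has lost the enzymes G9a (gene Ehmt2) and Glp (gene Ehmt1). Both mutants were derived with CRISPR/Cas9 from the WT line as 1 clone each, so that the conditional Eset1 gene and its first Cre are shared by all 3 groups. Per the study's methods, an additional tamoxifen-inducible Cre with a puromycin resistance gene was put in after gene disruption and kept under puromycin. Genotype cannot be told apart from clone or, where the mutants carry this construct, from the construct and the drug. The labels give standard growth medium and no inflammatory stimulus, and whether these cultures received tamoxifen was not stated in the sources used here.

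TLRs are membrane receptors that recognise conserved microbial molecules and, in some settings, nucleic acids of the cell itself. TLR2 pairs with TLR1 or TLR6 at the cell surface to bind bacterial lipoproteins, TLR4 binds lipopolysaccharide with the help of MD-2 (Ly96) and CD14, and TLR3 binds double-stranded RNA in endosomes. The adaptor MyD88 connects most TLRs to the IRAK kinases, TRAF6 and NF-kB. TRIF (Ticam1) serves TLR3 directly and TLR4 through the bridging adaptor TRAM (Ticam2), and leads to TBK1, IRF3 and type I interferon. Fibroblasts are known to express several of these receptors.

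The libraries held 21319778 to 32157623 counts, and 15540 genes passed the filter on low counts and were tested. Of the 10 genes, 9 were tested. Ticam2 was not, since it had at most 1 count in any library. Levels are given as CPM, the count scaled to library size after TMM normalization, with the SD over 3 cultures. A gene "rose" or "fell" where the Benjamini-Hochberg adjusted p of the edgeR test was at most 0.01, and was "called" where the change was also at least 2-fold. Of the 4 targeted KMT transcripts, Suv39h1 fell in S1S2 (108 to 41.9 CPM) and Ehmt2 (125 to 54.3 CPM) and Ehmt1 (104 to 50.2 CPM) fell in G9Gl, whereas Suv39h2 rose in S1S2 (33.9 to 55.2 CPM). The clones were chosen for loss of the proteins, and a frameshift need not lower an mRNA. The fibroblast markers summed to 10600 to 12200 CPM in WT, 7990 to 8060 CPM in S1S2 and 8370 to 9270 CPM in G9Gl, with Lum at no more than 2 counts in any library. Of 11 tested, 9 fell and 1 rose in S1S2 (median log2 fold change -1.14) and 8 fell and 2 rose in G9Gl (median -0.42), where 17.6% of all tested genes fell and 20.3% rose in S1S2, and 16.0% and 19.0% in G9Gl. In S1S2, Col3a1 was 8.04-fold and Col1a2 6.06-fold lower, and in G9Gl Dcn was 36.1-fold lower and Thy1 7.68-fold higher. The endothelial markers summed to 0.165 to 0.226 CPM in WT, 1.6 to 1.88 CPM in S1S2 and 0.79 to 2.53 CPM in G9Gl, with Kdr at 1.22 CPM in S1S2 against 0.0215 CPM in WT and Cdh5 at 1.01 CPM in G9Gl against 0 CPM in WT. The epithelial markers summed to 0.298 to 0.548, 4.67 to 5.55 and 0.294 to 0.395 CPM in the same order, with Krt8 at 4.68 CPM in S1S2 against 0.139 CPM in WT. These 3 genes passed the filter only through the mutant in which they were high. The part of these shifts in the results was not tested. Of 12 leukocyte and macrophage markers, Adgre1, Tyrobp and Cd3e had 0 counts in all 9 libraries, Ptprc had at most 4, and the list summed to 4.99 to 5.14 CPM in WT, 3.64 to 5.01 CPM in S1S2 and 5.46 to 5.76 CPM in G9Gl. Most of that sum was Cd68, which other cell types also express.

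The genes differed widely in level in all genotypes. Corrected for exon length, as CPM per kilobase, Myd88 was the most abundant in WT at 8.02 ± 0.394 (SD, n = 3), followed by Tlr2 at 7.16 ± 0.52 and Tlr4 at 5.48 ± 0.633. Ly96 (2.72 ± 0.278) and Ticam1 (2.47 ± 0.218) came next, then Cd14 (1.16 ± 0.0558) and Tlr3 (1.07 ± 0.201). Tlr6 and Tlr1 lay far below, at 0.257 ± 0.109 and 0.0735 ± 0.0209 CPM per kilobase. In this WT order the libraries of Myd88 and Tlr2, of Ly96 and Ticam1, and of Cd14 and Tlr3 overlapped. The other neighbours did not.

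The order differed in the mutants. In S1S2, Myd88 (8.30 ± 0.803 CPM per kilobase) and Tlr2 (8.12 ± 0.625) again led and overlapped, but Ticam1 at 4.24 ± 0.422 stood above Tlr4 at 2.72 ± 0.253, whose libraries overlapped those of Ly96 (2.48 ± 0.354). In G9Gl, Tlr4 at 7.81 ± 0.555 CPM per kilobase stood above Tlr2 at 6.48 ± 0.8 without overlap. There Tlr3 had moved to 3.10 ± 0.486 CPM per kilobase, level with Ticam1 at 3.05 ± 0.215 and above Ly96 (1.92 ± 0.188) and Cd14 (1.02 ± 0.158). Ticam2, which would link TLR4 to TRIF, gave 4 reads over all 9 libraries. Its exons overlap those of Tmed7 on the same strand, a gene at 138 to 149 CPM, and 13.6% of its 75-base stretches occur in other genes, so even these reads are uncertain.

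**Figure D1:**
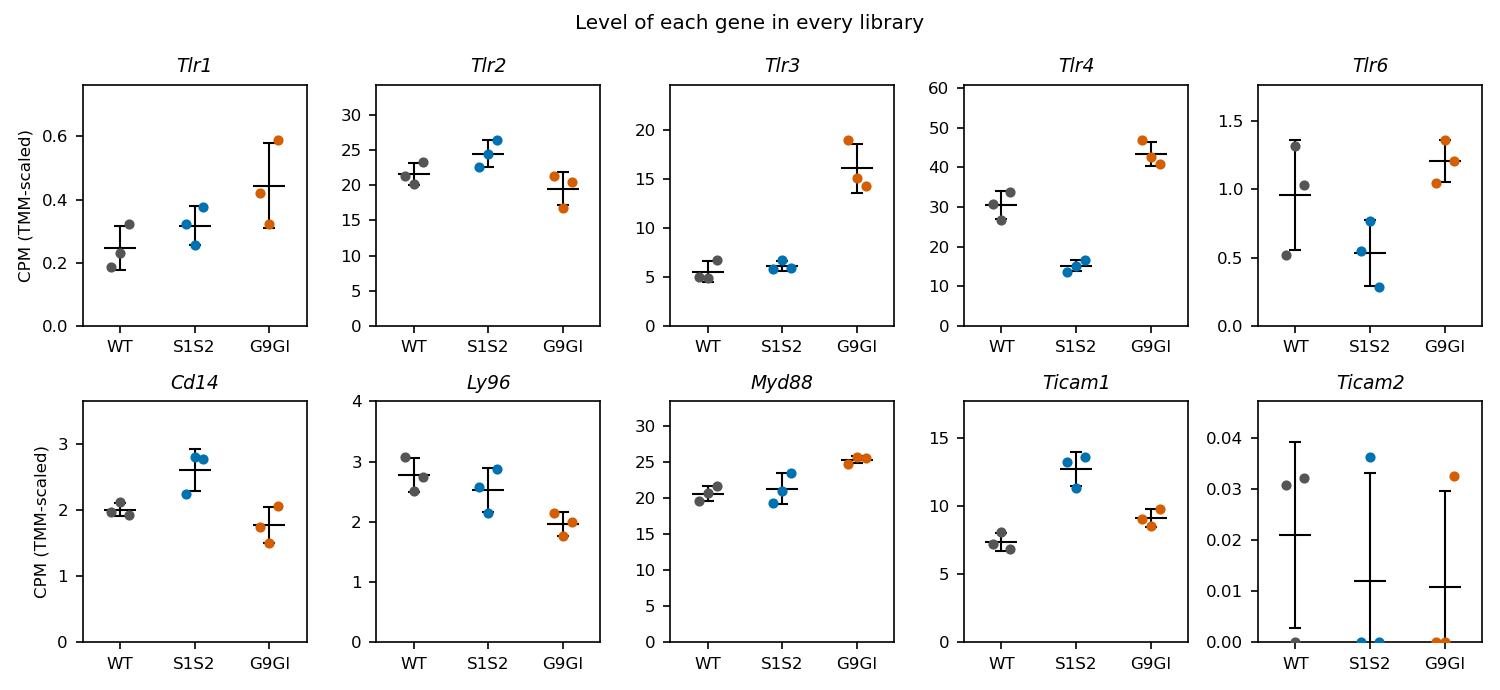
Level of each of the 10 genes in every library, in TMM-scaled CPM on linear axes from 0 that differ between panels. Points are cultures (n = 3 per genotype), the horizontal mark is the mean and the bar is the SD. Tlr3 separates G9Gl from the other genotypes, Tlr4 separates all 3, and Ticam1 is highest in S1S2.

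The promoter windows of Tlr3, Myd88 and Ticam1 are shown because these genes rose in a mutant and have an entry in the promoter table of RefSeq (GRCm38.p6). The search covered 8 windows for 6 of the 10 genes. Cd14 and Ticam2 were not among those searched, which does not show that they lack an entry. Each printed window runs 5′ to 3′ on the strand of the gene, from 250 bases before to 50 bases after the annotated start, at chr8:45410331-45410630 (minus strand) for Tlr3, chr9:119339969-119340268 (minus strand) for Myd88 and chr17:56276718-56277017 (minus strand) for Ticam1. The Tlr3 and Myd88 windows lie inside the gene as drawn by GENCODE M21, which has a start further upstream for both. Capitals mark matches to any of 3 motifs searched on both strands.
Tlr3: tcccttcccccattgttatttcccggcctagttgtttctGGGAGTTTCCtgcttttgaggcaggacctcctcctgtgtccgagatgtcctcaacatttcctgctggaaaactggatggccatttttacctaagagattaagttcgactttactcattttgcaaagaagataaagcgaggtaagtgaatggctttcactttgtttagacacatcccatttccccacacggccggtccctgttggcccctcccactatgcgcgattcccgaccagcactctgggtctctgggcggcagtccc
Myd88: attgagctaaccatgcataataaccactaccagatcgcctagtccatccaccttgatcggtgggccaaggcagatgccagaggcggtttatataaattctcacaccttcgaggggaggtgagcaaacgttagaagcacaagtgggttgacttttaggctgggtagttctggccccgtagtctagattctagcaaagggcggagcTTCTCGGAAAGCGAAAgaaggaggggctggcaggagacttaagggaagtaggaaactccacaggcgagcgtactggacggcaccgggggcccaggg
Ticam1: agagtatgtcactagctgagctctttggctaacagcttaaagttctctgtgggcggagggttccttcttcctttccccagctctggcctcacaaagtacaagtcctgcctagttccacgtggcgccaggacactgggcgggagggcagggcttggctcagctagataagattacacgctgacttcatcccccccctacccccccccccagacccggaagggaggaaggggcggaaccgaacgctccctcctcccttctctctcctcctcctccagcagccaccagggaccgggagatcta
The capitals in Tlr3 are a match to the kappaB consensus bound by NF-kB, from -211 to -202 relative to the start, where the first transcribed base is 0. A match to this motif was present in 4.51% of the 32851 windows searched, and Tlr2 held 3 such matches. In Myd88 the capitals are 2 overlapping matches. TTCNNNGAA, the form bound by STAT factors, lies from -46 to -38, and GAAANNGAAA, a tandem pair as in interferon-stimulated response elements, lies from -40 to -31. They were present in 8.30% and 3.44% of the windows searched. The Ticam1 window held none of the 3 motifs. A match is a description of letters and does not show that a factor binds.

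Among the receptors, Tlr3 rose in G9Gl and Tlr4 moved in opposite directions in the mutants. Tlr3 (chromosome 8, 45395665 to 45411080, GRCm38) stood at 4.98, 4.93 and 6.77 CPM in the WT cultures, at 5.79, 6.71 and 5.97 CPM in S1S2, and at 19.0, 15.1 and 14.3 CPM in G9Gl. All 3 G9Gl libraries lay above all others, and WT and S1S2 overlapped. The log2 fold change was 1.54 (SE 0.167, edgeR adjusted p = 3.13e-08) in G9Gl and 0.15 (95% interval -0.26 to 0.56, adjusted p = 0.415) in S1S2, so that an increase of the G9Gl size lies outside the S1S2 interval. An antisense gene, Gm45542, overlaps its exons and 4.28% of its 75-base stretches are shared with that gene. Gm45542 was not analysed here, and its part in the counts was not tested.

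Tlr4 (chromosome 4, 66827584 to 66930284) stood at 30.6, 26.8 and 33.8 CPM in WT, at 13.7, 15.2 and 16.5 CPM in S1S2 and at 46.8, 42.5 and 40.8 CPM in G9Gl. No library of a genotype overlapped those of another. S1S2 cultures had a 2.01-fold lower level (log2 fold change -1.01, SE 0.112, edgeR adjusted p = 6.34e-08) and G9Gl cultures a 1.43-fold higher level (0.51, adjusted p = 4.64e-05). The S1S2 change sat at the 2-fold limit: the log2 fold change of Tlr4 was -0.93 without WT replicate 3, -0.95 without S1S2 replicate 1 and -0.89 with offsets for GC content and length, each still past the adjusted p. Fewer cells that express a gene and less RNA per cell cannot be told apart in these bulk libraries.

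Tlr2, the other abundant receptor gene, passed the test in neither mutant. Its libraries ranged from 20.2 to 23.3 CPM in WT, from 22.6 to 26.4 CPM in S1S2 and from 16.8 to 21.3 CPM in G9Gl. Against WT the log2 fold change was 0.18 (interval -0.09 to 0.46) in S1S2 and -0.14 (interval -0.42 to 0.13) in G9Gl. Compared directly, Tlr2 was lower in G9Gl than in S1S2 by 1.25-fold (log2 fold change -0.33, edgeR adjusted p = 0.00513). The difference in Tlr2 no longer passed without S1S2 replicate 2 (-0.32, adjusted p = 0.019), S1S2 replicate 3 (-0.27, 0.0282) or G9Gl replicate 2 (-0.23, 0.0329), or with the median of its chromosome removed (-0.20, 0.0769).

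The partner receptors of TLR2 were scarce. Tlr1 had 6 to 10 counts per library in WT, 7 to 8 in S1S2 and 9 to 18 in G9Gl, and passed no comparison (G9Gl against WT 0.85, interval 0.24 to 1.47, edgeR adjusted p = 0.0859). Tlr6 had 17 to 40 counts in WT, 6 to 21 in S1S2 and 30 to 38 in G9Gl. The 2 mutants did not overlap, at 0.533 ± 0.242 and 1.21 ± 0.156 CPM, but the difference of 1.13 on the log2 scale (SE 0.43) had an adjusted p of 0.0151. Leaving out S1S2 replicate 2 gave Tlr6 1.52 (0.00963), and leaving out WT replicate 1 gave 1.14 (0.00692), both past the limit, as were the values with no filter (1.14, 0.00129) and with only the libraries compared (1.13, 0.00662). Over all fits with a library left out, the Tlr6 difference ranged from 0.85 to 1.52, with an edgeR adjusted p of up to 0.07. Tlr1 and Tlr6 are neighbours on chromosome 5, 18467 bases apart, and share an identical run of 229 bases, so that 10.28% of the 75-base stretches of Tlr1 also occur in Tlr6 and reads from it could be split between them.

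The co-receptor genes of TLR4 passed the test in neither mutant. Cd14 stood at 1.97, 2.12 and 1.93 CPM in WT, at 2.25, 2.81 and 2.77 CPM in S1S2 and at 1.75, 1.51 and 2.06 CPM in G9Gl. S1S2 lay above WT in every library, with a log2 fold change of 0.38 (interval 0.06 to 0.71, edgeR adjusted p = 0.0825). Ly96 stood at 3.08, 2.51 and 2.74 CPM in WT, at 2.57, 2.15 and 2.87 CPM in S1S2 and at 2.14, 1.76 and 1.99 CPM in G9Gl. In G9Gl every library lay below WT, with a log2 fold change of -0.50 (interval -0.83 to -0.17, adjusted p = 0.0227), which passed the limit once offsets for GC content and length were added (-0.59, adjusted p = 0.00818). With chromosome medians removed it was -0.24 (adjusted p = 0.282), the median of chromosome 1 in G9Gl being -0.263. In S1S2 the log2 fold change of Ly96 was -0.15 (interval -0.47 to 0.18). Both genes rest on 42 to 100 counts per library.

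Among the adaptors, Ticam1 rose in S1S2 and Myd88 in G9Gl. Ticam1 (chromosome 17, 56269319 to 56276786) stood at 7.20, 8.10 and 6.83 CPM in WT, at 13.2, 11.3 and 13.6 CPM in S1S2 and at 9.05, 8.51 and 9.79 CPM in G9Gl. The 3 genotypes did not overlap. In S1S2 the rise was 1.72-fold, or 0.78 on the log2 scale (SE 0.102, edgeR adjusted p = 8.08e-06). In G9Gl the log2 fold change of 0.31 (interval 0.06 to 0.56) had an adjusted p of 0.0233, and 0.00658 with GC and length offsets (0.36). Ticam1 was 1.39-fold lower in G9Gl than in S1S2 (-0.47, adjusted p = 0.000852).

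Myd88 (chromosome 9, 119335934 to 119341411) stood at 19.6, 20.7 and 21.7 CPM in WT, at 19.4, 21.1 and 23.6 CPM in S1S2 and at 24.8, 25.8 and 25.6 CPM in G9Gl. WT and S1S2 overlapped (log2 fold change 0.05, interval -0.13 to 0.23), and G9Gl lay above both. The rise in G9Gl was 1.23-fold (0.30, SE 0.0747, edgeR adjusted p = 0.00209), and leaving out WT replicate 1 gave Myd88 0.26 with an adjusted p of 0.0167. The direct difference between the mutants (0.25, adjusted p = 0.00753) missed the limit when any G9Gl replicate (adjusted p = 0.0115, 0.0249 and 0.0217), S1S2 replicate 1 (0.054) or S1S2 replicate 2 (0.0279) was left out, and was 0.15 with chromosome medians removed (0.103) and 0.25 with no composition factor (0.0102). Acaa1a, a peroxisomal thiolase gene on the opposite strand, overlaps the exons of Myd88. It moved the same way in G9Gl (0.39, adjusted p = 2.34e-05) and fell in S1S2 (-0.22, adjusted p = 0.00659). Whether strand was used in counting is not stated, and the part of Acaa1a in the Myd88 counts was not tested. Slc22a14, whose span holds Myd88, had at most 2 counts in any library.

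Across the set, Ticam1 and Tlr4 changed in S1S2, and Tlr3, Tlr4 and Myd88 in G9Gl. In S1S2, 2 of the 9 tested genes passed the adjusted p, against 37.9% of all tested genes, 1 up (Ticam1) and 1 down (Tlr4). Tlr4 was called lower, and no gene was called higher, where 4.34% and 4.66% of all tested genes were. In G9Gl, 3 of 9 passed (background 35.0%), all upward, where 19.0% of all tested genes rose, and Tlr3 was called higher and none lower, where 6.77% and 3.40% of all tested genes were. Between the mutants, 5 of 9 passed (background 42.6%). Tlr3, Tlr4 and Myd88 were higher in G9Gl (background 21.6%) and Tlr2 and Ticam1 were lower (background 21.1%). Tlr3 and Tlr4 were called higher and none lower, where 7.97% and 5.08% of all tested genes were. The libraries did not overlap for 3 genes in S1S2 against WT, 6 in G9Gl against WT and 8 between the mutants, where 56.0%, 52.8% and 60.8% of all tested genes did not overlap. The median log2 fold change of the 9 genes was 0.15 in S1S2, 0.31 in G9Gl and 0.25 between the mutants, against -0.003, -0.007 and 0 over all tested genes. The 3 comparisons share libraries.

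**Figure D2:**
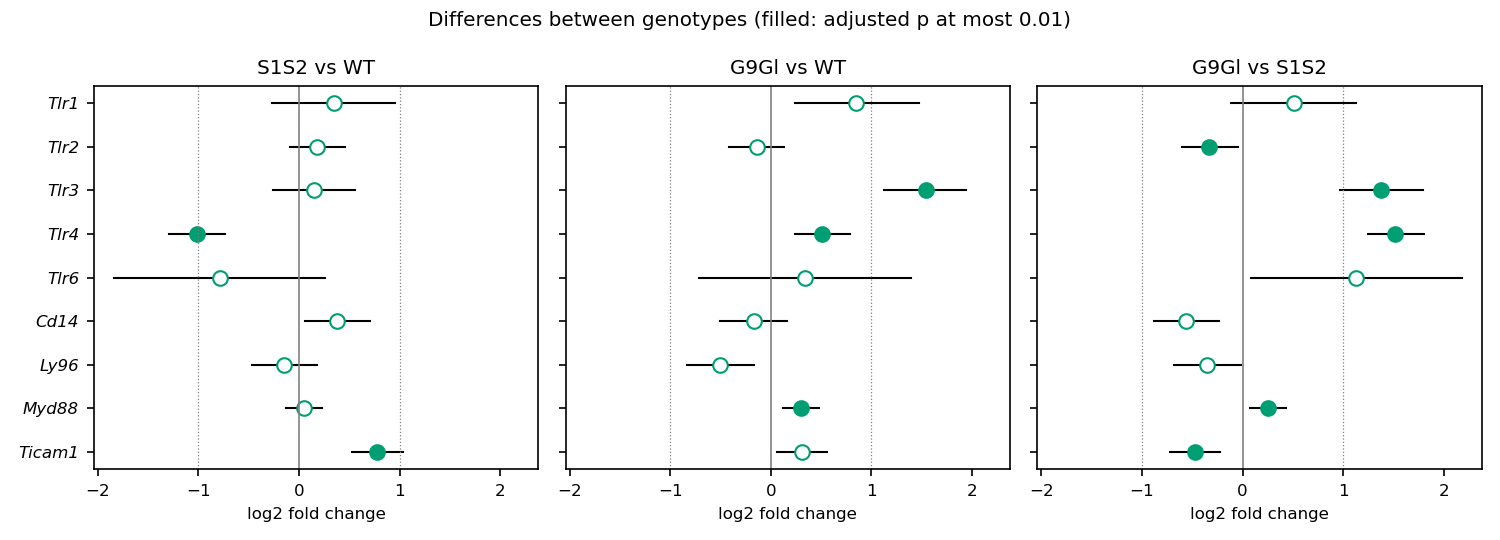
Log2 fold change (x axis) of the 9 tested genes in each comparison, the first-named genotype over the second. Points are edgeR estimates, filled at an adjusted p of at most 0.01, lines are 95% intervals from the pooled SD over cultures, and dotted lines mark 2-fold. Tlr3 and Tlr4 differ most between the mutants, at 1.38 and 1.52.

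Because a ratio of 2 genes within a library does not depend on its depth, the make-up of the receptor complement was compared as ratios of CPM per kilobase. These ratios were chosen after the values of the genes were seen and are descriptions. An exact permutation test of 3 against 3 cannot give a two-sided p below 0.1. The ratio of Tlr4 to Tlr2 was 0.763 ± 0.0365 in WT, 0.334 ± 0.00599 in S1S2 and 1.22 ± 0.149 in G9Gl, without overlap. Tlr4 to Ly96, the receptor and the co-receptor it needs to bind lipopolysaccharide, was 2.02 ± 0.227 in WT, 1.11 ± 0.169 in S1S2 and 4.08 ± 0.339 in G9Gl. The libraries of the 3 genotypes did not overlap in this ratio either. Tlr4 to Cd14 ranged from 3.95 to 5.46 in WT, from 1.69 to 1.89 in S1S2 and from 6.19 to 8.79 in G9Gl.

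Tlr3 to Tlr4 was higher in both mutants, at 0.437 ± 0.044 in S1S2 and 0.395 ± 0.0333 in G9Gl against 0.194 ± 0.0199 in WT. In S1S2 the numerator was near its WT level and the denominator was low, whereas in G9Gl both were high. Ticam1 to Myd88 was 0.514 ± 0.0641 in S1S2 and overlapped between WT (0.308 ± 0.0333) and G9Gl (0.309 ± 0.0232). The summed TLR level took in the 5 receptors with Tlr5, Tlr7, Tlr8, Tlr9, Tlr11, Tlr12 and Tlr13. Of that sum, Tlr2 made up 49.8% ± 0.777 in WT, 65.7% ± 0.827 in S1S2 and 33.7% ± 2.63 in G9Gl. Tlr4 made up 38.0% ± 1.43, 22.0% ± 0.461 and 40.7% ± 1.84. The share of Tlr3 was 7.38% ± 0.763 in WT, 9.58% ± 0.807 in S1S2 and 16.1% ± 1.38 in G9Gl.

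**Figure D3:**
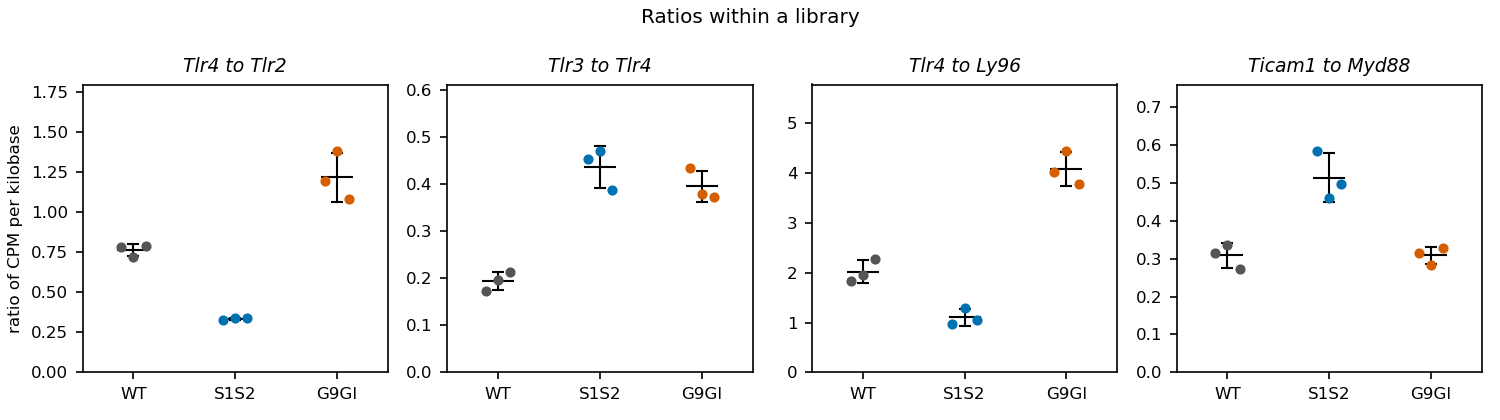
Ratios of levels within each library, computed from CPM per kilobase of exon, on linear axes from 0. Points are cultures (n = 3 per genotype), the horizontal mark is the mean and the bar is the SD. Tlr4 to Tlr2 and Tlr4 to Ly96 are lowest in S1S2 and highest in G9Gl, and Ticam1 to Myd88 is raised in S1S2.

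Most other TLR genes were not detected in these MEF, and Tlr7 was scarce outside G9Gl. Tlr8, Tlr9, Tlr11 and Tlr12 had 0 counts in all 9 libraries, which allows up to 0.0923 to 0.141 CPM per library (3 counts), and Tlr13 had at most 4. Tlr7, an endosomal receptor for single-stranded RNA on the X chromosome, had 3, 6 and 8 counts in WT, 2, 5 and 2 in S1S2 and 128, 121 and 120 in G9Gl. The log2 fold change of Tlr7 in G9Gl was 4.52 (SE 0.302, edgeR adjusted p = 2.8e-10), to 4.25 ± 0.299 CPM. It passed the filter on low counts only through its G9Gl libraries, so a test of Tlr7 was bound to meet a difference, and its fold rests on at most 8 counts per WT library. Its level per kilobase in G9Gl, 1.04, was near that of Cd14 in the same cells. Tlr5, the flagellin receptor, had 33 to 51 counts in WT, 5 to 11 in S1S2 and 31 to 53 in G9Gl. Tlr5 fell by 2.03 on the log2 scale in the S1S2 cultures (SE 0.317, adjusted p = 8.79e-05), with 0.08 (interval -0.69 to 0.86) in G9Gl. Of the leukocyte and macrophage markers, Mrc1 stood at 0.438 ± 0.0407 CPM in G9Gl and 0.0103 ± 0.0178 CPM in WT, with at most 13 counts in any library, and passed the filter only through G9Gl. Csf1r (0.242 against 0.032 CPM) and Ptprc (0.0909 against 0 CPM) also lay above WT in every G9Gl library but were too low to be tested. Cd68 (0.01) and Fcer1g (-0.93, adjusted p = 0.0696, every G9Gl library below WT) did not pass the test, and Adgre1 and Tyrobp had 0 counts. The part of these markers in the Tlr7 result was not tested.

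A list of 76 further genes of TLR signalling, with the other TLRs and the chaperones among them, was ordered by role, and 58 were tested. In S1S2, 36 of the 58 passed the adjusted p, 27 up and 9 down, and in G9Gl 25 passed, 19 up and 6 down. Among all tested genes 20.3% rose and 17.6% fell in S1S2, and 19.0% rose and 16.0% fell in G9Gl. The medians of the 58 were 0.17 and 0.07 on the log2 scale. In each mutant 7 were called, 5 of them higher in S1S2 (background 4.66% higher and 4.34% lower) and 6 higher in G9Gl (6.77% and 3.40%). The 19 and the 6 in G9Gl include Tlr7, which passed the filter only through that mutant.

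Among the kinases and ligases of the MyD88 branch, Irak3 and Peli2 were called against WT. Of 17 tested, 9 passed the adjusted p in S1S2, where 6 rose and 3 fell, and 6 passed in G9Gl, where 4 rose and 2 fell, against 37.9% and 35.0% of all tested genes. The medians were 0.13 and -0.03. Irak3, which encodes the inhibitory IRAK-M, rose in S1S2 from 0.649 ± 0.271 to 1.85 ± 0.539 CPM (log2 fold change 1.48, edgeR adjusted p = 0.000605), with -0.18 (adjusted p = 0.719) in G9Gl. Peli2, an E3 ligase that acts on IRAK proteins, moved in opposite directions. It rose to 3.58 ± 0.271 CPM in S1S2 and fell to 0.412 ± 0.155 CPM in G9Gl from 1.95 ± 0.302 CPM in WT (log2 fold changes 0.88 and -2.23, adjusted p = 0.000904 and 1.76e-06).

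In the TRIF branch 10 genes were tested. In S1S2, 1 rose and 1 fell, and in G9Gl 3 rose and 1 fell, with medians of 0.06 and 0.16. The counts passing, 2 and 4 of 10, stand against 37.9% and 35.0% of all tested genes. Tbkbp1, an adaptor of the kinase TBK1, fell in S1S2 (2.59 ± 0.343 to 1.23 ± 0.481 CPM, log2 fold change -1.08, edgeR adjusted p = 0.000971) and stood at 3.56 ± 0.509 CPM in G9Gl, where Tbkbp1 passed only under the replicate block with GC and length offsets (0.58, adjusted p = 0.00934). Of the other TIR adaptors, Sarm1, an NAD-cleaving enzyme that antagonises TRIF, rose in S1S2 (0.804 ± 0.197 to 1.65 ± 0.554 CPM, log2 fold change 1.04, adjusted p = 0.00448). The Sarm1 call was lost without WT replicate 1 (0.85, adjusted p = 0.0295), S1S2 replicate 1 (0.84, 0.034) or S1S2 replicate 2 (0.97, 0.0243), and under the replicate block with GC and length offsets (0.96, 0.0123). All 4 tested chaperone and accessory genes passed the test in S1S2 (background 37.9%), 2 in each direction, and 1 fell in G9Gl (background 16.0%).

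Of the 5 NF-kB subunit genes, 4 were lower in G9Gl than in S1S2 (background 21.1%). These genes are singled out here after their values were seen, and none changed 2-fold. In S1S2, 4 of 5 rose (background 20.3%). Rela went from 68.3 ± 1.23 to 102 ± 2.87 CPM (log2 fold change 0.59, edgeR adjusted p = 1.07e-08) and Nfkb2 from 132 ± 7.15 to 233 ± 6.15 CPM (0.82, adjusted p = 9.6e-11), with Nfkb1 at 0.39 and Relb at 0.36. Rel fell by 0.42 on the log2 scale. In G9Gl these 4 were at -0.07 to 0, and Rel alone passed the test (-0.22, adjusted p = 0.00549). Nfkb1 passed in G9Gl with GC and length offsets (-0.13, adjusted p = 0.00997). Rel no longer passed without WT replicate 2 (-0.19, adjusted p = 0.0269), G9Gl replicate 1 (-0.20, 0.0255) or G9Gl replicate 3 (-0.21, 0.0263). Directly compared, Nfkb1, Nfkb2, Rela and Relb were lower in G9Gl than in S1S2, by 0.44, 0.89, 0.59 and 0.43 on the log2 scale. Rel was 0.19 higher in G9Gl, which did not pass the test (adjusted p = 0.0162) but did with no filter (0.21, 0.00809) and without S1S2 replicate 1 (0.24, 0.00844). Rela and Nfkb2 lie on chromosome 19, and their values changed when chromosome medians were removed. Rela then stood at 0.25 in S1S2 (adjusted p = 0.000233), at 0.17 in G9Gl (0.00692) and at -0.08 between the mutants (0.149). Nfkb2 stood at 0.49 in S1S2 (9.24e-08) and at -0.38 between the mutants (1.37e-06).

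**Figure D4:**
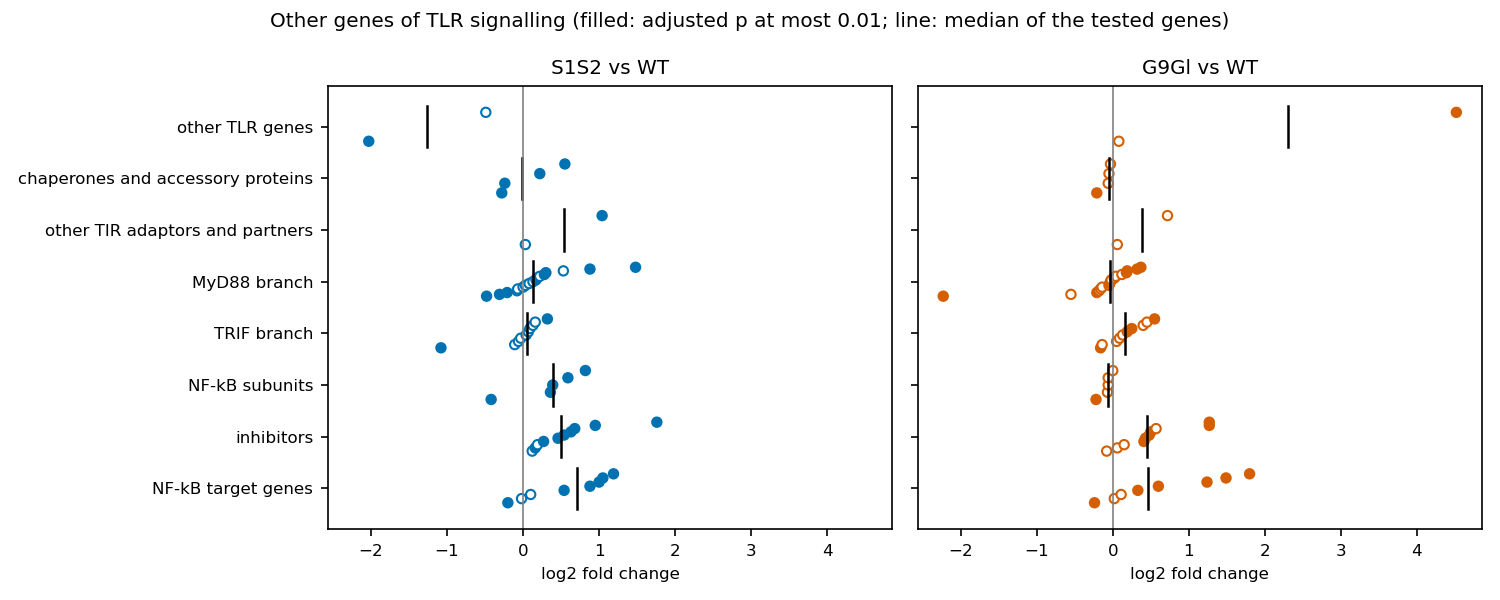
Log2 fold change against WT (x axis) of the tested genes of each TLR signalling list, S1S2 on the left and G9Gl on the right. Each point is a gene, filled at an edgeR adjusted p of at most 0.01, and black lines are list medians. The inhibitors lie to the right in both mutants (medians 0.50 and 0.46) and the NF-kB subunits in S1S2 (0.39 against -0.06 in G9Gl).

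Most inhibitors of the pathway rose. Of 10 tested, 8 rose and none fell in S1S2, and 6 rose and none fell in G9Gl, with medians of 0.50 and 0.46, where 20.3% and 19.0% of all tested genes rose. Tnfaip3, which encodes the deubiquitinase A20, stood at 10.1, 12.3 and 9.22 CPM in WT, at 36.0, 38.6 and 32.5 CPM in S1S2 and at 23.6, 26.5 and 26.3 CPM in G9Gl. The 3 genotypes did not overlap, and Tnfaip3 rose 3.39-fold in S1S2 (log2 fold change 1.76, edgeR adjusted p = 8.73e-11) and 2.41-fold in G9Gl (1.27, adjusted p = 5.7e-09). Sigirr, a receptor that dampens IL-1 and TLR signals, rose in G9Gl from 2.15 ± 0.349 to 5.20 ± 0.727 CPM (1.27, adjusted p = 4.49e-06) and by 0.68 in S1S2. In S1S2, Sigirr no longer passed the test without WT replicate 1 (0.66, adjusted p = 0.0138), WT replicate 2 (0.57, 0.0174), S1S2 replicate 2 (0.61, 0.0227) or S1S2 replicate 3 (0.64, 0.0138).

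Most of the tested target genes of NF-kB rose in each mutant. Of 15 listed, 8 were expressed enough to be tested. In each mutant 5 rose and 1 fell, where 20.3% of all tested genes rose and 17.6% fell in S1S2, and 19.0% and 16.0% in G9Gl. The chemokine gene Ccl2, at 22.7 ± 1.55 CPM in WT, rose in both mutants. It reached 46.8 ± 2.98 CPM in S1S2 (log2 fold change 1.05, edgeR adjusted p = 3.17e-10) and 78.8 ± 1.42 CPM in G9Gl (1.8, adjusted p = 9.84e-14). Csf1, the macrophage growth factor, rose more in S1S2 (146 ± 8.53 to 332 ± 9.71 CPM, 1.19) than in G9Gl (222 ± 6.72 CPM, 0.60), a direct difference of -0.58 (adjusted p = 8.54e-09). Ccl7 and Ptgs2, which encodes cyclooxygenase-2, rose in G9Gl by 1.49 and 1.24 (adjusted p = 6.56e-07 and 3e-11) and stood at 0.10 (interval -0.50 to 0.69) and -0.02 (interval -0.21 to 0.16) in S1S2. Both differed between the mutants (1.39 and 1.26, adjusted p = 1.73e-06 and 2.47e-11).

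**Figure D5:**
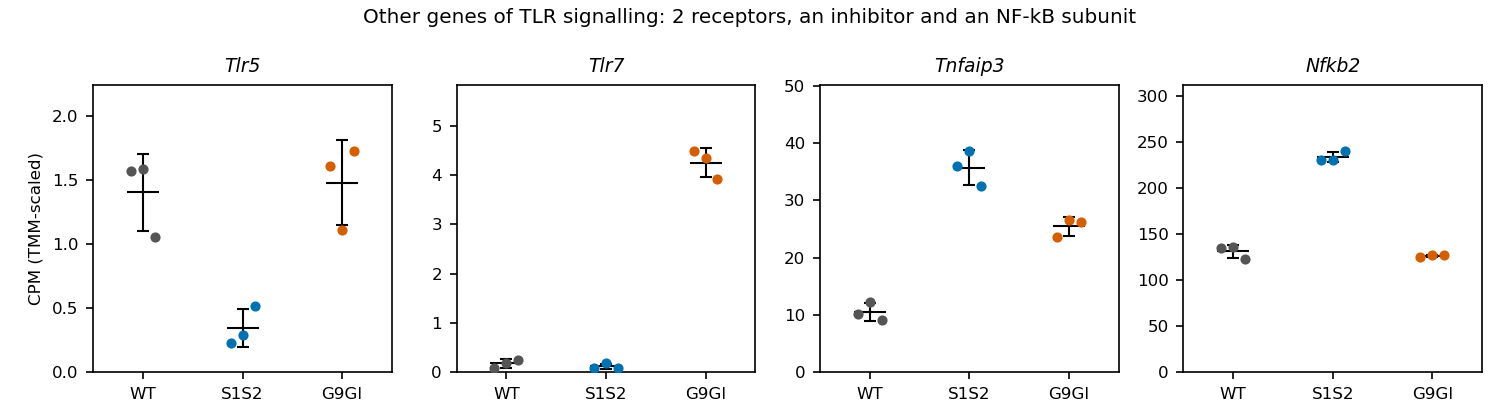
Levels of the receptors Tlr5 and Tlr7, the inhibitor Tnfaip3 and the NF-kB subunit Nfkb2 in every library, in TMM-scaled CPM on linear axes from 0. Points are cultures (n = 3 per genotype), the horizontal mark is the mean and the bar is the SD. Tlr7 is raised in G9Gl, Tlr5 is reduced and Nfkb2 raised in S1S2, and Tnfaip3 is raised in both mutants.

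The genes whose profiles were most like those of Tlr3 and Tlr4 were sought among 10848 genes with over 100 counts on average, by the root mean square distance of log2 CPM across the 9 libraries after subtraction of the WT mean. Nearest to Tlr3 were Atp8a1, a phospholipid flippase gene (distance 0.148), Pfkp, a phosphofructokinase gene (0.166), and B2m, the light chain of MHC class I (0.167). B2m stood at 190, 212 and 632 CPM in WT, S1S2 and G9Gl. Nearest to Tlr4 were Rmdn2 (0.0802), the lectin receptor gene Cd302 (0.11) and Pros1, which encodes protein S (0.123). Rmdn2 stood at 9.62, 4.47 and 13.3 CPM and Cd302 at 15.8, 7.65 and 25.0 CPM in the same order. All libraries entered this ranking, so it describes these 9 samples.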

How the data were processed

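RNA-seq libraries of 9 MEF cultures were analysed, 3 each of WT, S1S2 and G9Gl as labelled. The authors deposited 1 table of unnormalized read counts by gene. Its reads, 75-base pairs from stranded total RNA, had been trimmed (cutadapt), mapped to GRCm38 (STAR 2.5.2b) and counted with TEtranscripts, which distributes multiply aligned reads. The annotation release and the strand setting in counting are not given in the sources used here. Of 47937 genes, 47310 matched GENCODE M21, which gave symbols, positions and exon lengths.

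All 9 libraries (21319778 to 32157623 counts, a floor of 3 counts being 0.0923 to 0.141 CPM) entered 1 quasi-likelihood fit of edgeR 4.0.16 in R 4.3.3 after filterByExpr and TMM, with a coefficient per genotype, and p-values were adjusted over 15540 genes. Only counting error and the spread between cultures of a clone are covered, and reads, which carry no molecular identifiers, may be copies of the same molecule. SE and 95% intervals come from the pooled SD of log2 CPM (prior count 2, 6 degrees of freedom). On simulated counts for S1S2 against WT over 15540 genes, 77.6% of 1.5-fold and 89.6% of 2-fold changes passed. The simulated spread between cultures was the same for every gene, so these shares do not describe scarce genes alone. Named genes are the 10, up to 4 per list with the largest change among those called, the 3 most like Tlr3 and Tlr4, overlapping genes, and those marked as chosen after their values were seen. The members and lists were chosen with earlier results of these data known. A listed gene is not reported here. Alternatives were DESeq2 1.42.0, other scalings and filters, a replicate block, GC and length offsets, removal of chromosome medians, and leaving out each library.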

Additional observations from a re-analysis of the deposited data

Results flagged for a closer look

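Tlr3 and Tlr4 stood out because their effects differed between the mutants in the direct comparison of G9Gl with S1S2. For Tlr3 the difference was 1.38 on the log2 scale (16.1 ± 2.53 against 6.16 ± 0.484 CPM, edgeR adjusted p = 1.24e-07), with every G9Gl library above every S1S2 library. For Tlr4 it was 1.52 (43.4 ± 3.08 against 15.1 ± 1.41 CPM, adjusted p = 1.37e-10), again without overlap. Each mutant is 1 clone, so that genotype cannot be told apart from clone in either difference.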

How the results depend on the processing

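Over single genes, 483 of 506 values of the 9 tested genes and 918 of 959 of the named pathway genes kept their direction and side of the adjusted p of 0.01. With GC and length offsets, and with the replicate block added to them, 0 genes of the set were called in S1S2 against WT in place of 1 and 5 passed the adjusted p in G9Gl against WT in place of 3, Ly96 (-0.59) and Ticam1 (0.36) being added. At an adjusted p of 0.05 that count was also 5. Leaving out 1 library at a time gave 0 to 1 called in S1S2, 2 to 3 past the adjusted p in G9Gl, and 3 to 6 between the mutants, the 3 without G9Gl replicate 2, where Tlr2 and Myd88 were lost. The sign turned for small values that had not passed the test. Tlr3 in S1S2 went to 0 with chromosome medians removed (chromosome 8 median 0.154) and Myd88 in S1S2 to -0.02 without S1S2 replicate 3. Ccl7 in S1S2 was between -0.04 and 0.30 when a library was left out, Ptgs2 in S1S2 between -0.09 and 0.03, and 0.09 with GC and length offsets, with or without the block, and 0.11 with chromosome medians removed. With a library left out, Tlr5 in G9Gl was between -0.08 and 0.25 and Irak3 in G9Gl between -0.42 and 0.18. Nfkb2 in G9Gl was at 0.03 with GC and length offsets, with or without the block, and 0.10 with chromosome medians removed. Rela in G9Gl, at 0, was at -0.03 with no composition factor, 0 with no filter, with the block or with only the libraries compared, and between -0.03 and 0.02 with a library left out. The cause was not tested.

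Replicate numbers did not pair the samples (same-number deviations correlated at -0.0686 to 0.124). The replicate block alone left 1, 1 and 3 of the genes called and 2, 3 and 6 past the adjusted p in S1S2 against WT, G9Gl against WT and between the mutants, and 32, 25 and 32 pathway genes past it, Tlr6 being the gene added between the mutants (1.18, adjusted p = 0.00694). With GC and length offsets as well, 34, 25 and 33 pathway genes passed. Tlr1 and Tlr6 had at most 40 counts in any library, and how far depth limits their tests was not tested.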
